A study of Caenorhabditis elegans with 6 samples.

Results

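A set of 10 genes of fatty acid desaturation and elongation in Caenorhabditis elegans were followed, the desaturase genes fat-1 to fat-7 and the elongase genes elo-1, elo-2 and elo-5. They were chosen by name, as the probe sets whose single gene symbol in the platform annotation is one of these 10, and each gene was read by 1 probe set, so the members are 10 of 22548 probe sets tested. RNA came from whole worms of mixed stages, 3 samples of wild-type N2 and 3 of outcrossed worms with the loss-of-function allele tdp-1(ok803), described in the labels as RB929. Each sample was read on 1 Affymetrix C. elegans genome array, and the deposited values are on the log2 scale. The worm orthologue of TDP-43, the product of tdp-1, is an RNA-binding protein whose human counterpart is linked to motor neuron disease, and the comparison asks how transcript levels differ when it is lost. The labels give neither the mix of stages in a sample nor the age of the worms, and in whole worms fewer cells of a type and less RNA per cell cannot be told apart.

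Fatty acids of the worm come from its bacterial food and from its own synthesis. Desaturases put double bonds into fatty acyl chains, and elongases carry out the step that commits a chain to being lengthened. Unlike mammals, worms make polyunsaturated fatty acids from saturated ones, up to arachidonic and eicosapentaenoic acid, and these chains set the fluidity of membranes and serve as precursors of signalling lipids. The stearoyl-CoA desaturase genes fat-6 and fat-7 are known as targets of the nuclear receptor NHR-49, of the sterol-response factor SBP-1 and of insulin signalling. The intestine is a main site of fatty acid synthesis and storage in worms.

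No desaturase or elongase gene differed detectably between tdp-1(ok803) and wild type. In limma, 0 of the 10 probe sets passed an adjusted p of 0.05, where 0.0577% of all probe sets did, and 0 of the 10 had an unadjusted p under 0.05, against 6.97% of all. An unmoderated linear model called 0 probe sets of all 22548, tdp-1 included, so its count of 0 members carries no information. The mutant and wild-type values overlapped for all 10, where 11.6% of all probe sets showed no overlap. At shares of this size, 0 of 10 does not set the members apart from other probe sets. The mean was lower in the mutant for 8 genes and higher for 2, where 49.5% of all probe sets had a lower mean. Their median difference was -0.12 on the log2 scale, against 0.013 over 17118 genes, and the 10 differences ran from -0.35 for elo-2 to 0.040 for fat-7. The 95% interval of the difference lay within 2-fold either way for 9 of the 10 genes, elo-2 being the exception, and within 1.5-fold for 3, fat-6, fat-7 and elo-1.

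The labels were checked on tdp-1 itself. Its brighter probe set read 8.86, 9.22 and 8.85 in wild type and 4.77, 4.78 and 5.47 in the mutant. All mutant values lay far below all wild-type values, by 3.97 ± 0.21 (SE) on average (limma adjusted p = 0.000815).

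**Figure D1:**
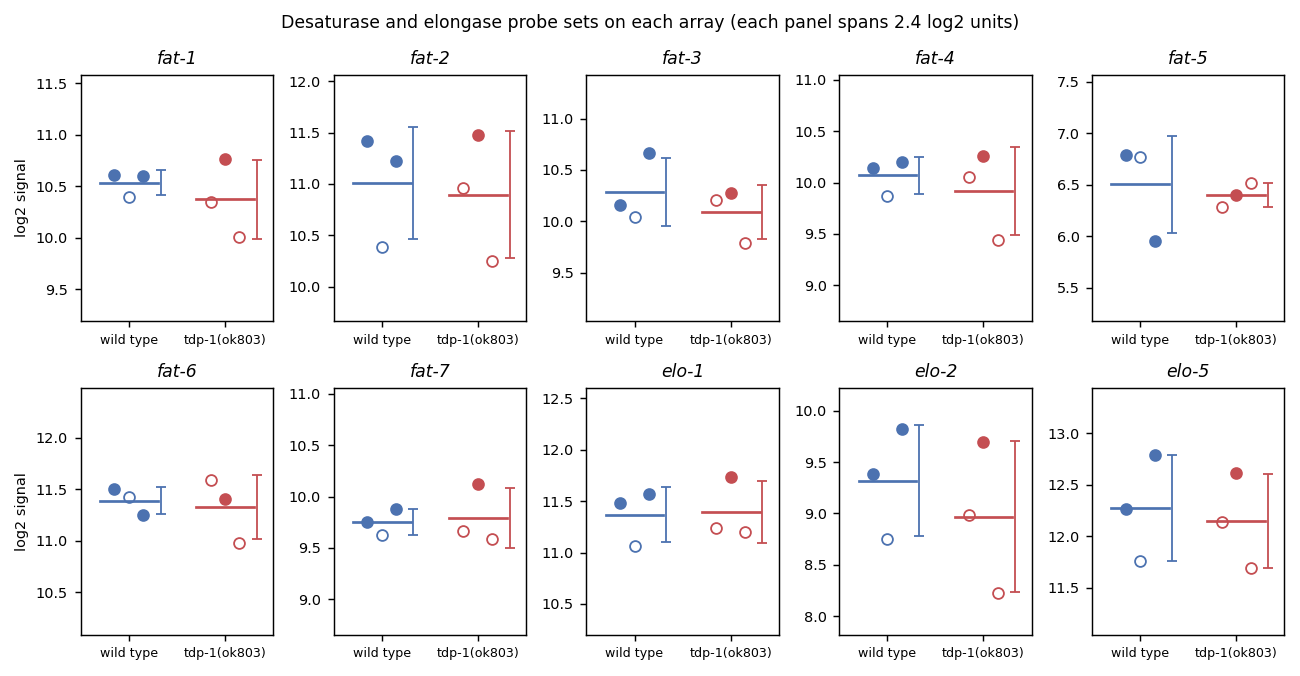
Log2 signal of each member on the 3 wild-type (blue) and 3 tdp-1(ok803) (red) arrays, with replicates 1 to 3 from left to right in each group, a line at the mean and a bar of 1 SD. Filled points are the 3 arrays whose actin and Gapdh controls differed less between their 3' and 5' ends (2.52 to 3.09), open points the other 3 (4.01 to 4.31); the 2 genotypes overlap in every panel, and filled points lie above open points in 7 panels.

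The arrays split in a way that crossed the genotypes and that most of the members followed. The signal at the 3' end minus that at the 5' end, averaged over the actin and Gapdh controls, is used as a sign of RNA integrity and of the reach of labelling. It was 2.69, 4.12 and 2.52 in wild type and 4.01, 3.09 and 4.31 in the mutant. A smaller difference was thus found on 3 arrays (mutant replicate 2, wild-type replicate 1 and wild-type replicate 3) and a larger one on the other 3. The genotype means, 3.11 ± 0.88 and 3.80 ± 0.64 (SD, n = 3), did not differ beyond the spread (exact permutation p = 0.3, two-sided, smallest possible 0.1). Of the 10 members, 7 were higher on all of the first 3 arrays than on any of the other 3, where 14.2% of all probe sets were, and 0 members showed the opposite order, where 19% did. The means of fat-3, fat-6 and fat-5 differed between the first and the other 3 arrays by 0.35, 0.054 and -0.14, with values that overlapped. Each member is therefore given below with its value on every array, and for some members the difference between these array classes is added. The genotype difference inside each class is plotted for every member and is described after the single genes, mainly for the members as a set. What set the arrays apart cannot be told from the labels, which do not give the mix of worm stages per sample, and the part that RNA integrity or labelling had in the members' values was not tested.

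The acyl-CoA desaturases that make monounsaturated fatty acids are FAT-5, which acts on palmitoyl-CoA, and FAT-6 and FAT-7, which act on stearoyl-CoA and can stand in for each other. The probe set of fat-7 read 9.75, 9.62 and 9.88 in wild type and 9.66, 10.12 and 9.59 in the mutant. Mutant replicate 2 was the highest array and mutant replicate 3 the lowest, so the wild-type values lay inside the mutant range. The difference of 0.040 ± 0.17 (SE) had a 95% interval from -0.35 to 0.43 (limma adjusted p = 0.981). That interval reaches at most 1.27-fold lower and 1.34-fold higher in the mutant, the narrowest among the members.

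For fat-6 the wild-type values were 11.50, 11.42 and 11.25 and the mutant values 11.59, 11.41 and 10.98. Mutant replicates 1 and 2 lay within or just above the wild-type range and replicate 3 lay below it. The difference was -0.064 ± 0.17, with an interval from 1.38-fold lower to 1.26-fold higher (limma adjusted p = 0.967). The fat-6 probe set, like that of elo-5, carries the suffix that Affymetrix gives to sets whose probes can match more than 1 transcript. Because fat-6 and fat-7 are close in sequence, signal shared between them cannot be separated here, and where the probes lie was not analysed.

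The gene fat-5 read 6.79, 6.77 and 5.96 in wild type and 6.28, 6.40 and 6.51 in the mutant. Wild-type replicate 3 was the lowest array and the other wild-type arrays the highest, with all mutant values between them. The difference was -0.11 ± 0.23 (limma adjusted p = 0.957). Among the members it alone had a lower mean on the arrays with the smaller control difference, 6.38 against 6.52. Its mean signal ranked at the 62.9 percentile of all probe sets, while the other members ranked between 88.5 and 98.5, and whether it lay above background was not assessed.

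ELO-2 lengthens palmitic acid and so feeds the stearoyl-CoA desaturases. The values of elo-2 were 9.39, 8.75 and 9.82 in wild type and 8.99, 9.69 and 8.22 in the mutant. Mutant replicate 3 and wild-type replicate 2 were the lowest, and mutant replicate 2 lay close to the highest wild-type array. The genotype difference of -0.35 ± 0.39 was the largest in size and the least precise of the 10. Its interval ran from 2.38-fold lower to 1.46-fold higher (limma adjusted p = 0.91), and thus includes a 2-fold fall. Between the array classes the mean of elo-2 differed by 0.98, from 9.63 where the control difference was smaller to 8.65 where it was larger.

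FAT-2 converts oleic to linoleic acid and thereby opens the polyunsaturated branch, and FAT-1, the omega-3 desaturase that mammals lack, turns omega-6 into omega-3 fatty acids. In the WBcel235 gene table fat-1 and fat-2 are next to each other on chromosome IV. The probe set of fat-2 read 11.42, 10.39 and 11.22 in wild type and 10.96, 11.48 and 10.25 in the mutant. One array of each genotype stood low and the genotype ranges nearly coincided. The difference was -0.11 ± 0.35 (limma adjusted p = 0.974), against a difference of 0.84 between the array classes.

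The gene fat-1 varied less, with 10.61, 10.39 and 10.60 in wild type and 10.35, 10.77 and 10.005 in the mutant. The wild-type values fell inside the mutant range. Its difference was -0.16 ± 0.20, with an interval from 1.53-fold lower to 1.22-fold higher (limma adjusted p = 0.92). Both genes followed the array classes, as 7 of the 10 members did, and for fat-1 the difference between the classes was 0.41.

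Front-end desaturation is carried out by FAT-3, which acts first on linoleic and alpha-linolenic acid, and by FAT-4, which makes arachidonic and eicosapentaenoic acid from the chains that ELO-1 has lengthened in between. The genes fat-3 and fat-4 are also next to each other on chromosome IV. Values of fat-3 were 10.16, 10.04 and 10.66 in wild type and 10.21, 10.28 and 9.79 in the mutant. Wild-type replicate 3 was the highest and mutant replicate 3 the lowest, with the other 4 arrays close together. The difference of -0.19 ± 0.20 (limma adjusted p = 0.904) had an interval from 1.58-fold lower to 1.21-fold higher.

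For fat-4 the values were 10.14, 9.87 and 10.20 in wild type and 10.05, 10.26 and 9.44 in the mutant. Only mutant replicate 3 lay outside the narrow span of the other 5 arrays by a clear margin. The difference was -0.15 ± 0.22 (limma adjusted p = 0.933), and without mutant replicate 3 it was 0.089.

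Values of elo-1 were 11.48, 11.07 and 11.56 in wild type and 11.24, 11.74 and 11.20 in the mutant. The highest array was mutant replicate 2 and the lowest wild-type replicate 2. The difference was 0.022 ± 0.19, with an interval from 1.35-fold lower to 1.39-fold higher (limma adjusted p = 0.992).

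ELO-5 belongs to another branch, the lengthening of branched-chain fatty acids derived from leucine, which the worm needs for growth. The probe set of elo-5 read 12.27, 11.76 and 12.79 in wild type and 12.14, 12.61 and 11.70 in the mutant. Both genotypes spread widely, over nearly the same range. The difference was -0.12 ± 0.30 (limma adjusted p = 0.963), against 0.69 between the array classes.

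**Figure D2:**
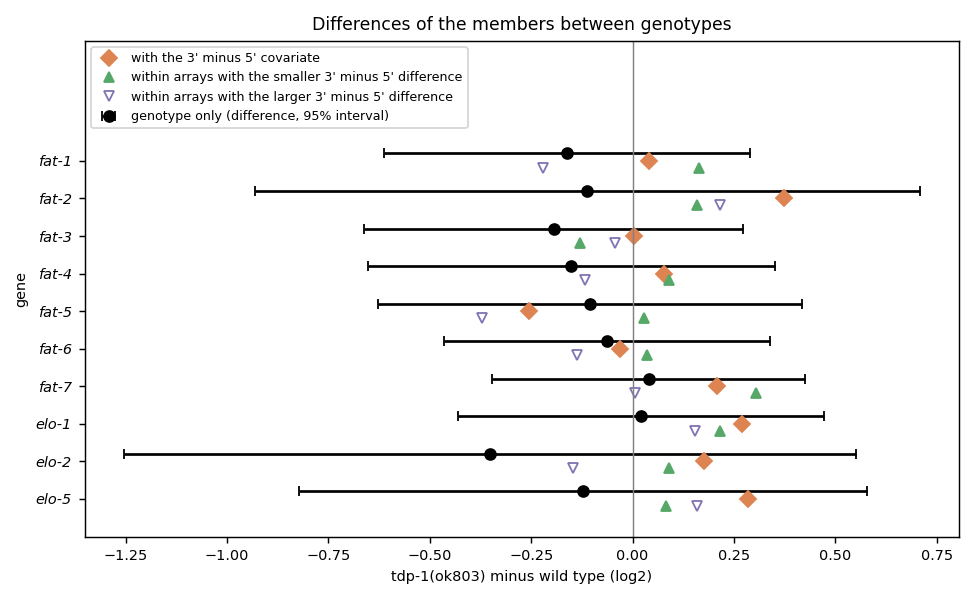
Difference of each member between tdp-1(ok803) and wild type on the log2 scale, with genotype as the only term (black, with its 95% interval), with the 3' minus 5' control difference as a covariate (orange) and inside the 2 array classes (triangles). All 10 intervals include 0; the interval of elo-2 is the widest, and for 8 genes the orange point lies to the right of 0.

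The genotype difference was also taken inside each array class. Among the 3 arrays with the smaller control difference, the single mutant array was higher than the mean of the wild-type pair for 9 of the 10 genes, with fat-7 at 0.31 and elo-1 at 0.21, and the median over the members was 0.090. That count rests on 1 mutant array, replicate 2, which held the highest value of 5 members, and the members shared a profile. It is therefore not read as a rise of the members in the mutant. Among the other 3 arrays, where 1 was wild type, the mutant mean was higher for 4 genes and lower for 6, and the median was -0.08. The sign was the same in both classes for 5 genes, fat-2, fat-7, elo-1 and elo-5 being higher in the mutant and fat-3 lower. For fat-7 the difference in the class with the larger control difference was only 0.0048. The shares of all probe sets with these signs inside the classes were not taken. With the class as a block, chosen after seeing the data, 4 genes were higher and 6 lower, against 54.7% of all probe sets lower, and the median was -0.02. In that fit limma gave 0 of 10 at an unadjusted p under 0.05, against 8.72% of all probe sets, and 0 after adjustment, against 0.0931%.

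With the control difference as a covariate, 8 members were higher in the mutant and 2 lower, and their median turned from -0.12 to 0.13. In that fit 56.5% of all probe sets were lower in the mutant. The gene elo-1 differed by 0.27 ± 0.11 (limma unadjusted p = 0.0449, adjusted p = 0.454), the only member with an unadjusted p under 0.05, where 10.7% of all probe sets had one. The adjusted p of fat-2, at 0.37 ± 0.18, was 0.516 and that of elo-5, at 0.28 ± 0.16, was 0.587 in the same limma fit. No member passed after adjustment, where 0.111% of all probe sets did, and fat-5 had the opposite sign to most, at -0.25 ± 0.23. The slope on the control difference, at fixed genotype, was negative for 9 of 10 members against 38.1% of all probe sets, from -0.76 per log2 unit for elo-2 and -0.70 for fat-2 to -0.046 for fat-6, with fat-5 at 0.22.

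**Figure D3:**
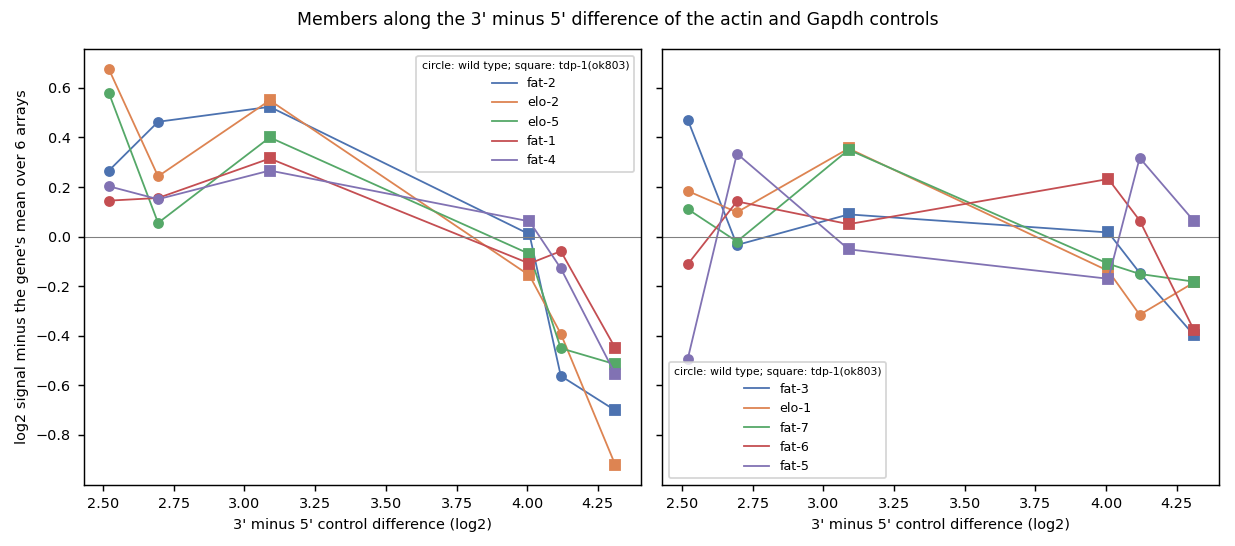
Log2 signal of each member minus its mean over the 6 arrays, against the 3' minus 5' difference of the actin and Gapdh controls on the same array; circles are wild type and squares tdp-1(ok803). The 5 members on the left fall between the 3 arrays up to 3.09 and the 3 arrays from 4.01 on, elo-2 the most, while fat-5 and fat-6 on the right show no such step.

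The members also shared a profile over the arrays. Their average, each gene centred on its own mean, was 0.16, -0.18 and 0.20 in wild type and -0.04, 0.28 and -0.42 in the mutant. Mutant replicate 2 held the highest value of 5 members and mutant replicate 3 the lowest of 8. As a description over 6 arrays, elo-2 lay closest to the average (Pearson r = 0.98) and fat-4, fat-1, fat-2 and elo-5 followed at 0.97, 0.97, 0.96 and 0.92. The values were 0.87 for elo-1, 0.84 for fat-7, 0.80 for fat-3 and 0.52 for fat-6, and fat-5 ran the other way at -0.33. Each gene is part of the average it is set against, which raises its own value.

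Of 12134 other genes above the 30th percentile of mean signal, the 5 whose profile was most like that average were elof-1, snr-4, prel-1, Y106G6H.6 and bcl-7, with r between 0.995 and 0.999 over the 6 arrays. The 5 most opposed were pqn-62, sgca-1, ppm-1.G, nobh-1 and ZK353.3, with r between -0.999 and -0.993. An r above 0.9 was common, in 6.24% of these genes, and 4.34% lay below -0.9. All these profiles share the same 6 arrays and their 3' minus 5' difference.

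The largest difference in the pathway lists was that of another elongase gene, elo-4, and it did not pass. Of the 6 named, 5 were measured, elo-8 not being analysed here, and 0 of 5 passed in limma, with 1 at an unadjusted p under 0.05 and a median difference of -0.24. The gene with that p was elo-4, which read 6.82, 6.37 and 7.51 in wild type and 5.93, 6.01 and 5.61 in the mutant. Its mutant values all lay below its wild-type values, as for 4.84% of all probe sets. The difference was -1.05 ± 0.27 (limma unadjusted p = 0.00493, adjusted p = 0.409). Inside the array classes it was -1.155 where the control difference was smaller and -0.61 where it was larger, and with the covariate -0.74.

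The gene elo-6, whose product acts with ELO-5 on branched chains, read 11.21, 11.03 and 12.11 in wild type and 11.46, 12.07 and 10.98 in the mutant. Its ranges overlapped, with a difference of 0.050 ± 0.34 (limma adjusted p = 0.99). The family members elo-3, elo-7 and elo-9 differed by -0.21, -0.34 and -0.24 (limma adjusted p = 0.876, 0.752 and 0.836). The mean signal of elo-7, the gene next to elo-1, ranked at the 24.1 percentile, and whether it lay above background was not assessed.

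The other enzymes of the lengthening cycle and the electron carriers of desaturation had 0 of 5 passing in limma and 0 at an unadjusted p under 0.05. The ketoacyl-CoA reductase gene let-767 differed by 0.21 ± 0.14 and the dehydratase gene hpo-8 by 0.15 ± 0.14, the enoyl-CoA reductase gene art-1 by -0.30 ± 0.24. In fatty acid synthesis 0 of 5 passed, with 0 at an unadjusted p under 0.05 and a median of -0.17. There the acetyl-CoA carboxylase gene pod-2 differed by -0.40 ± 0.34 and the fatty acid synthase gene fasn-1 by -0.19 ± 0.17. A second, dimmer fasn-1 probe set read -0.72 (limma adjusted p = 0.80).

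Supply of branched-chain precursors had 0 of 5 passing in limma and 1 at an unadjusted p under 0.05. That was bckd-1A, a subunit of the branched-chain ketoacid dehydrogenase, at 0.36 ± 0.14 (limma adjusted p = 0.655), with mutant values of 9.17 to 9.47 above wild-type values of 8.81 to 9.13. The acyl-CoA synthetase gene acs-1 stood at 0.38 ± 0.19 (limma adjusted p = 0.774). For both genes a second, dimmer probe set had the opposite sign, -0.36 for bckd-1A and -0.38 for acs-1. Both dimmer sets were higher on all arrays with the smaller control difference than on any other. With the 3' minus 5' covariate they read -0.0048 and -0.0042.

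Of 14 genes known to regulate desaturase expression or membrane fluidity, 0 passed in limma and 1 had an unadjusted p under 0.05. In the mutant 11 were higher, where 9072 of 17118 genes were, and the median was 0.095. The nuclear receptor genes nhr-49, nhr-80, nhr-13 and nhr-66 differed by 0.092, 0.27, 0.15 and 0.081 (limma adjusted p of at least 0.845). The sterol-response factor gene sbp-1 differed by 0.20 ± 0.16 and mdt-15, its Mediator partner, by 0.066 ± 0.15. The gene with the smallest p was lpd-2, which encodes a C/EBP-like factor, at 7.69, 7.40 and 7.83 in wild type and 7.91, 8.29 and 8.01 in the mutant. Its values did not overlap, as for 6.8% of all probe sets in this direction, and the difference was 0.43 ± 0.16 (limma adjusted p = 0.621). The membrane fluidity gene iglr-2 stood at 0.37 ± 0.18, with a second probe set at -0.29. A dimmer probe set of nhr-66 read -0.31 ± 0.12, with mutant values all below wild-type values (limma unadjusted p = 0.0382, adjusted p = 0.681), against 0.081 for the brighter set. A dimmer probe set of nhr-49 read -0.32 (limma adjusted p = 0.839) and one of scp-1 -0.68 (limma adjusted p = 0.549), against 0.092 and -0.02 for the brighter sets. With the 3' minus 5' covariate the dimmer sets of iglr-2, nhr-49, nhr-66 and scp-1 read 0.16, -0.06, -0.23 and -0.45.

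Further lists held genes that use the products. Among genes of phosphatidylcholine synthesis 0 of 5 passed in limma, with the S-adenosylmethionine synthetase gene sams-1 at -0.10 ± 0.11 and the methyltransferase genes pmt-1 and pmt-2 at -0.14 and 0.0044. Among genes of acyl transfer and triglyceride synthesis 0 of 4 passed, and among genes of eicosanoid synthesis 0 of 5, cyp-13A12 not being analysed here. The largest difference in either list was that of emb-8, a cytochrome P450 reductase gene, at -0.34 ± 0.16 (limma adjusted p = 0.742). None of these genes had an unadjusted p under 0.05. Of 9 fatty acid binding protein genes 0 passed and 1 had an unadjusted p under 0.05, lbp-5 at 0.43 ± 0.17 (limma adjusted p = 0.681), with ranges that overlapped.

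**Figure D4:**
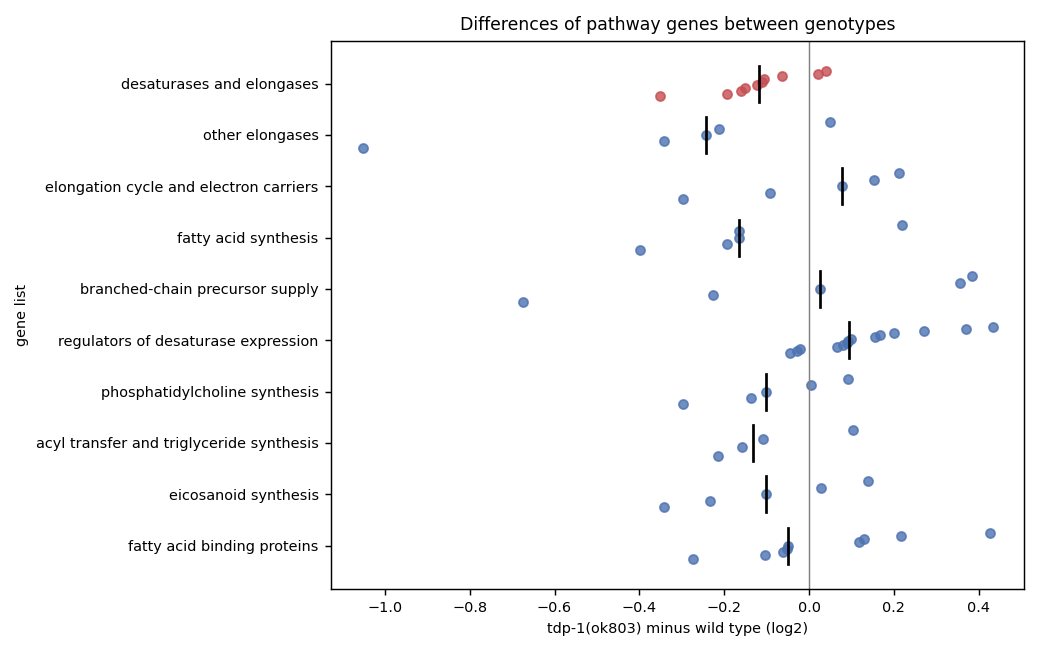
Difference between tdp-1(ok803) and wild type on the log2 scale for every measured gene of the pathway lists, 1 point per gene, with the list median as a black line. The 10 desaturases and elongases (red) lie between -0.35 and 0.040; the point farthest from 0 is elo-4 at -1.05, which did not pass over all probe sets.

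Marker genes of the tissues in a whole worm were read on the same arrays. Intestinal markers, 9 of 9 measured, had a median difference of -0.04, list means of -0.29 to 0.19 in wild type and -0.17 to 0.19 in the mutant, and 0 passing in limma, with 0 at an unadjusted p under 0.05. Their list means were 0.11 to 0.19 on the arrays with the smaller control difference and -0.29 to -0.04 on the others. Such a split was not particular to them. List means were 0.071 to 0.235 against -0.239 to -0.097 for germline markers and -0.02 to 0.51 against -0.33 to -0.08 for epidermis markers. The other marker lists overlapped between the classes. The lists of fatty acid synthesis, phosphatidylcholine synthesis, the lengthening cycle and branched-chain precursors also split. Yolk protein markers, 4 of 5 measured, had a median of 0.14, with list means of -0.13 to 0.092 in wild type and -0.19 to 0.20 in the mutant. Epidermis markers, 8 of 8 measured, had a median of -0.30 and list means of -0.26 to 0.51 in wild type and -0.33 to -0.02 in the mutant. An unadjusted p under 0.05 was found for 3 of them, wrt-2 at -0.78, rol-6 at -1.10 and elt-3 at 0.62, and 0 passed (limma adjusted p = 0.163, 0.40 and 0.487). A second elt-3 probe set read -0.06, or 0.054 with the 3' minus 5' covariate.

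Germline, sperm and pharynx markers had medians of -0.10, -0.05 and -0.29, and neuron and muscle markers -0.39 and -0.49, with 0 passing in limma. An unadjusted p under 0.05 was found for 1 germline gene, oma-2 at 0.34, for 2 neuron genes, rab-3 at -0.71 and egl-3 at -0.44, and for 1 muscle gene, unc-22 at -1.198. Second, dimmer probe sets read -0.67 for oma-2 and 0.026 for unc-22, of the opposite sign. With the 3' minus 5' covariate they read -0.20 and 0.039. The second probe sets of rab-3 and egl-3 kept the sign, at -0.45 and -0.28, with mutant values all below wild-type values. List means of neuron markers were 0.016 to 0.29 in wild type and -0.29 to -0.05 in the mutant. Within that list snb-1 went the other way, at 0.30 ± 0.14 (limma adjusted p = 0.742) with mutant values all above wild-type values. Its second probe set read -0.33, or 0.14 with the 3' minus 5' covariate. The part of tissue make-up in the members' values was not tested.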

How the data were processed

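The authors deposited log2 values, one for each array and probe set. The submitters' processing notes name RMA and Partek without versions; further settings are not given in those notes as used here. The log base was inferred from the range of the values. RNA was labelled by the 3' IVT Express protocol, per the labels' protocols. After removal of 77 control probe sets, 22548 were tested with limma 3.58.1 in R 4.3.3, by lmFit with a genotype term alone followed by eBayes. P-values are two-sided and adjusted by Benjamini-Hochberg over all of them, with a threshold of 0.05. Samples were grouped by labelled genotype. The design text calls the samples biological replicates.

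Symbols came from the platform annotation and were brought up to date with gene IDs in the WBcel235 table. For each gene the brightest probe set stood for it, and a dimmer one is given for any named gene whose probe sets differ in sign. Every difference is the mutant mean minus the wild-type mean. Intervals are limma's 95% intervals, not adjusted over genes. The array classes split the control difference at 3.5. The number of arrays limits precision, and signal over background was not assessed.

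Named were tdp-1, all members, a part of the up to 4 genes per list with the smallest p, and the 5 genes most like and the 5 most opposed to the members' average. Dimmer probe sets, and any gene outside this rule, were picked with their values in view. Members and lists were chosen with earlier results of these data known. Alternatives were other moderation, normalization, filter, threshold and weights, a replicate block, the 3' minus 5' covariate, the array class (added after seeing the data), and leaving out each array. Figures were drawn with matplotlib 3.10.9.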

Additional observations from a re-analysis of the deposited data

How the results depend on the processing

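The count of members called was 0 in every alternative except array weights, which called 1, fat-5, at -0.42 (limma adjusted p = 0.0415). That fit weighted the arrays from 0.267 to 7.91, so that wild-type replicate 1 and mutant replicate 1 decided it, and it called 6291 probe sets. Over all probe sets limma called 13 with genotype alone, 7 with equal array medians, 25 with the 3' minus 5' covariate, 21 with the array class as a block and 6 at an adjusted p under 0.01. The unmoderated model called 0, and leaving out single arrays gave 4 to 97, the highest without wild-type replicate 2. With the replicate number as a block the count was 5. The members' median stayed at -0.12 by construction, since each number holds an array of each genotype. Same-numbered arrays did not deviate together (r = 0.0499, -0.61 and -0.46 across probe sets), and none of the 3 wild-type arrays correlated best with its own number, so the numbers were not taken as pairs.

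The members' median ran from -0.30 without mutant replicate 2 to 0.096 without mutant replicate 3 when single arrays were left out, and was -0.24 without wild-type replicate 2. Of 150 member values under alternatives 25 had another sign than with genotype alone, at least 1 for each of the 10 genes. The 150 include values that could not change sign. Other moderation, the unmoderated model, the signal filter and the replicate block leave each member's difference as it was by construction. None of the sign changes came with a call. With an array left out, elo-2 ran from -0.71 to 0.021, fat-2 from -0.42 to 0.21, fat-5 from -0.38 to 0.035 and fat-7 from -0.13 to 0.14. Averaging probe sets within a gene was not run, since each member has 1. The causes of these shifts were not tested.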
